A study of Mus musculus with 2 samples.

Results

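The mitotic spindle and kinetochore genes described here are 37 of the 2000 genes in the deposited tables. They were taken by symbol, as all rows that begin with Kif, Cenp, Aurk, Bub1, Ccna2, Ccnb, Plk1, Ndc80, Nuf2, Spc2, Ska, Ncap, Cdc20, Aspm, Birc5, Ube2c, Top2a, Mki67, Cdk1 or Depdc1. That rule was set with earlier results of these data known. All 37 matched a protein-coding gene of the mm10 annotation, on 15 chromosomes. They comprise 6 cyclins and kinases (Ccna2, Ccnb1, Ccnb2, Cdk1, Plk1, Aurka), 2 subunits of the chromosomal passenger complex (Aurkb, Birc5) and 3 genes of the spindle checkpoint and the anaphase-promoting complex (Bub1b, Cdc20, Ube2c). There are 10 kinesins (Kif2c, Kif4, Kif11, Kif14, Kif15, Kif20a, Kif20b, Kif22, Kif23, Kifc1) and 8 centromere and kinetochore genes (Cenpa, Cenpe, Cenpf, Ndc80, Nuf2, Spc24, Spc25, Ska1). The other members are 3 condensin subunits with topoisomerase II (Ncapd2, Ncapg, Ncaph, Top2a) and 4 further genes (Aspm, Depdc1a, Depdc1b, Mki67).

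A dividing cell enters mitosis when cyclin A and cyclin B activate Cdk1. Condensin and topoisomerase II compact and untangle the chromosomes, kinesins build the spindle, and the kinetochore, which is assembled on centromeres marked by Cenpa, ties chromosomes to spindle microtubules. The checkpoint holds the cell until every kinetochore is attached. The anaphase-promoting complex with Cdc20 and Ube2c then marks cyclin B for destruction. Transcripts of these genes accumulate in the second part of the cell cycle and are scarce in resting lymphocytes, so they are widely used as markers of dividing T cells.

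Lethally irradiated BALB/c recipients had been given spleen and marrow cells of wild-type C57BL/6 donors, and the cells measured were from recipient spleens. Both groups share this allogeneic transplant. From day 0 to day 6 one group received tacrolimus, which inhibits calcineurin, and the other an antibody to IL-2, a cytokine that drives T-cell growth. Spleens were taken on day 6, and neither the number of recipients pooled nor the age of the mice is given in the sources used here. There was 1 library per treatment, so library and treatment cannot be told apart, no difference has a replicate check, and no p-value is given.

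Of 1551 anti-IL-2 and 1688 tacrolimus barcodes in the tables, 1242 and 1475 had at least 200 detected genes; 4 cell barcodes were shared by the libraries. The labels call the cells T cells, but 0 of 7 general T-cell markers were among the 2000 genes, so the label could be checked only on Cd4, Cd8a and Cd8b1. A cell was placed in the CD4 gate if it held at least 1 UMI (a counted RNA molecule) of Cd4 and none of Cd8a or Cd8b1, and in the CD8 gate if the reverse held. The CD4 gate held 283 anti-IL-2 and 267 tacrolimus cells (median 9458 and 11377 UMIs), and the CD8 gate 645 and 864 cells (median 13288 and 13661 UMIs). Cells with both kinds of marker (74 and 77) or with neither (31 and 37) were in no gate. Without matching of depth, cells with both held a median of 8 and 20 of the 37 genes. In the CD4 gate the medians were 1 and 17, and in the CD8 gate 13 and 24. The part of these cells in the results was not tested. Cells with 2 or more markers of another lineage were left out (209 and 230 cells). Most of them were left out only because Cst3 counted as a myeloid marker: without it 98 and 77 cells would have been, and the 37 of 37 counts of the CD4 comparisons between libraries and of the anti-IL-2 gates were the same. In the gates, Ms4a1 (B cell) and Csf1r and Adgre1 (macrophage) were detected in 0% of cells, Cd79b (B cell) in 1.41% to 13.8% and Klrb1c (NK cell) in 0.375% to 4.95%. Only 1 of 3 NK-cell markers was among the 2000 genes, so the limit of 2 markers could leave out 0 cells as NK cells. Cst3, listed as a myeloid marker, was in 64.7% to 93.3% of cells of the gates. Pancreatic acinar RNA was in 9.89% and 7.60% of anti-IL-2 CD4 and CD8 cells, and in 71.2% and 74.9% of tacrolimus cells; its part in the results was not tested. The anti-IL-2 values had been batch-integrated by the authors, and their UMIs are estimates.

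A level is the percentage of a gate's cells in which a gene had 1 UMI or more, called its share, with an exact 95% binomial interval that covers counting error only. Tacrolimus cells were thinned to the depths of the anti-IL-2 cells of the same gate. With no replicates, a gene was counted as lower or higher by a rule of size. The rule asked for a share of at least 5% on one side, a ratio of at least 1.5-fold either way, and a counting interval of the ratio that excluded 1.

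In the CD4 gate, all 37 mitotic genes were lower under anti-IL-2 than under tacrolimus by that rule, and 0 were higher. Among all 902 genes measured there, 38.1% were lower and 12.4% higher, and 50.7% had a counting interval below 1 at any fold. The median log2 ratio of the 37 was -1.72, against -0.31 over all measured genes. The genes ranged from a log2 ratio of -2.29 to -0.73, which placed them at percentiles 1.77 to 34.0 of all measured genes, counted from the lowest ratio. Every role was lower, from the kinases that start mitosis to the motors of the central spindle.

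**Figure D1:**
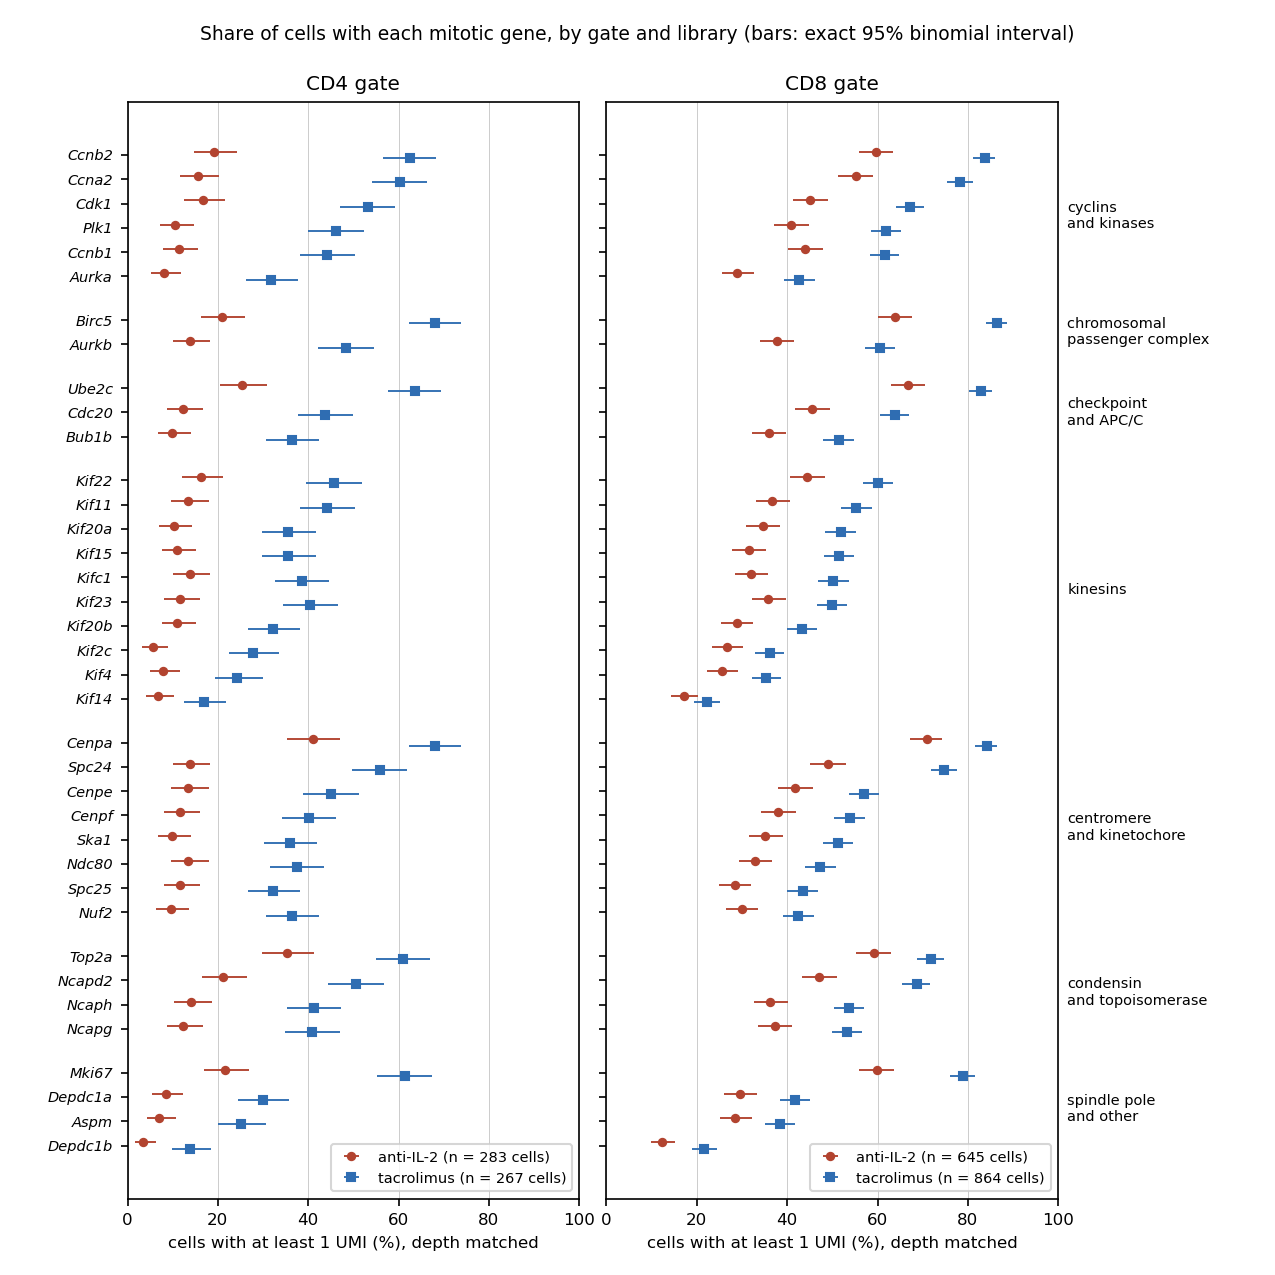
Detection of each of the 37 mitotic genes, as the share of cells holding it (x axis, percent), ordered by role, in the CD4 gate (left, 283 anti-IL-2 and 267 tacrolimus cells) and the CD8 gate (right, 645 and 864 cells), with exact 95% binomial intervals. In the CD4 gate no interval of an anti-IL-2 share reaches that of the tacrolimus share; in the CD8 gate the difference runs from -25.8 to -5.01 percentage points.

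Among the cyclins and kinases of the CD4 gate, the median log2 ratio was -1.96. Plk1, the kinase that drives spindle assembly and mitotic exit, was in 10.6% (7.27 to 14.8%) under anti-IL-2 and 46.1% (40.0 to 52.2%) under tacrolimus. That is a ratio of 0.230 (0.160 to 0.328), and Plk1 had the second lowest ratio of the 37. Aurka, which matures the spindle poles, was in 8.13% and 31.8% of cells. Ccnb1 (cyclin B1) was in 11.3% and 44.2%. Ccna2 (cyclin A2) was in 15.6% and 60.3%. Their ratios were alike, between 0.255 and 0.258. Ccnb2 (cyclin B2, 19.1% and 62.6%) and Cdk1, the kinase that the cyclins activate (16.6% and 53.2%), had ratios of 0.305 and 0.312.

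In the chromosomal passenger complex, which corrects faulty attachments and later helps to split the cell, both subunits were lower. Aurkb, its kinase, was in 13.8% under anti-IL-2 and 48.3% under tacrolimus. Birc5 (survivin) was in 20.8% (16.3 to 26.1%) and 68.2% (62.2 to 73.7%), a difference of -47.3 percentage points and the widest of the 37. In the checkpoint group, Bub1b, which blocks anaphase until attachment is complete, was in 9.89% and 36.3% of cells. Cdc20, the activator of the anaphase-promoting complex, was in 12.4% and 43.8%. Ube2c, the ubiquitin-conjugating enzyme of that complex, was in 25.4% (20.5 to 30.9%) and 63.7% (57.6 to 69.5%), so its ratio of 0.40 was nearer to 1 than theirs.

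Kinesins had a median log2 ratio of -1.67. Kif2c, which removes wrongly attached microtubules, had the lowest ratio of all 37 genes, at 0.204 (0.122 to 0.338), with shares of 5.65% (3.27 to 9.02%) under anti-IL-2 and 27.7% (22.4 to 33.5%) under tacrolimus. Kif11, the motor that pushes spindle poles apart, was in 13.4% and 44.2%. Kif22, which moves chromosome arms, was in 16.2% and 45.7%. Kif20a and Kif23, motors of the central spindle, were in 10.2% against 35.6% and in 11.7% against 40.4%. Kif15, Kif20b, Kif4 and Kifc1 had log2 ratios between -1.70 and -1.49. Kif14, which acts at the cleavage site, was rare in both libraries (6.71% and 16.9%) and had the kinesin ratio nearest to 1, at 0.398 (0.240 to 0.658).

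The 8 centromere and kinetochore genes include all 4 subunits of the Ndc80 complex, the part of the kinetochore that grips microtubules. Spc24 was in 13.8% and 55.8% of cells (ratio 0.247, 0.180 to 0.335) and Nuf2 in 9.54% and 36.3% (ratio 0.263). Ndc80 itself was in 13.4% and 37.5% and Spc25 in 11.7% and 32.2%, both with a ratio of 0.36 and with counting intervals that overlapped those of Spc24 and Nuf2. Cenpe, a kinetochore motor, was in 13.4% and 44.9% of cells, and Cenpf in 11.7% and 40.1%. Ska1, which stabilises attachments, was in 9.89% and 36%. Cenpa, the histone variant that marks the centromere, was in 41.0% (35.2 to 47.0%) and 68.2% (62.2 to 73.7%), a ratio of 0.601 (0.510 to 0.705), the nearest to 1 of the 37.

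The condensin group had a median log2 ratio of -1.40. Top2a, which untangles sister chromatids, was in 35.3% (29.8 to 41.2%) and 61.0% (54.9 to 66.9%) of cells, a ratio of 0.579 (0.480 to 0.694). Among the condensin subunits, Ncapd2 was in 21.2% and 50.6%, Ncaph in 14.1% and 41.2%, and Ncapg in 12.4% and 40.8%. Top2a and Cenpa were thus the only members with a ratio over 0.5. Mki67, whose product Ki-67 coats mitotic chromosomes, was in 21.6% (16.9 to 26.8%) and 61.4% (55.3 to 67.3%). Aspm, a spindle pole protein, was in 7.07% and 25.1%, Depdc1a in 8.48% and 30%, and Depdc1b, the rarest member, in 3.53% and 13.9%. Thinning moved the tacrolimus shares little: without it Plk1 was in 48.3%, Kif2c in 31.1%, Mki67 in 64.8% and Cenpa in 71.2% of tacrolimus CD4 cells.

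The genes that stood low together can be looked at by their promoters. RefSeq start sites of the GRCm38.p6 build gave a window of 250 bases before to 50 bases after the start for 31 of the 37 genes. Aurkb, Spc24, Kif20a, Ska1, Ccna2 and Depdc1b were not among them. Shown here are the 150 bases before the start of 5 members from 3 of the roles, written 5′ to 3′ on the gene's strand. They are examples picked because each holds both of the motifs described next within these 150 bases. Depdc1a, Kif11, Kif22 and Mki67 do so too and are not shown. The other members with a window lack at least 1 of the motifs in this stretch. The counts given below the sequences are for the whole windows. Capitals mark CCAAT or its reverse ATTGG (the CCAAT box, bound by NF-Y), TTTGAA or TTCGAA or the reverse TTCAAA (the cell cycle homology region, CHR, bound by the DREAM and MuvB complexes) and, in Ncapd2, TTTGGCG (an E2F-type motif).
Cdk1, chr10:69352913-69353062, minus strand: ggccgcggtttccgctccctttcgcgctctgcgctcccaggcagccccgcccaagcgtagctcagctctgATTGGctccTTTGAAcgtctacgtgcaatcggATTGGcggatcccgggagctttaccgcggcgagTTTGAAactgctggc
Top2a, chr11:99024190-99024339, minus strand: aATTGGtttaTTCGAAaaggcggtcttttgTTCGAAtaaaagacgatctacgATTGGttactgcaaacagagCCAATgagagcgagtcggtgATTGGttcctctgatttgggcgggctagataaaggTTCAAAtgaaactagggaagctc
Cdc20, chr4:118437344-118437493, minus strand: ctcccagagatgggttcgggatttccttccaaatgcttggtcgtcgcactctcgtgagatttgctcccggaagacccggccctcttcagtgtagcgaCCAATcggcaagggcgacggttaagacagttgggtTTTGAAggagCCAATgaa
Ube2c, chr2:164769779-164769928, plus strand: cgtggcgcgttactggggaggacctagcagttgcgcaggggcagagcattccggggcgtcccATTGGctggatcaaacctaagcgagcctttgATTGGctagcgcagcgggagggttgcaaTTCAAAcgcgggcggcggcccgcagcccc
Ncapd2, chr6:125191587-125191736, minus strand: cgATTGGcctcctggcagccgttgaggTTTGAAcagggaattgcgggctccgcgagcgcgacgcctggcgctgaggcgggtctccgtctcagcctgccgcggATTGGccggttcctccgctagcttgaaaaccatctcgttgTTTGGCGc

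A CCAAT box on either strand was in 24 of the 31 windows (77.4%), against 37.4% of all 32851 windows of the same length. The CHR letters TTTGAA or TTCGAA on either strand were in 26 of 31 (83.9%), against 19.2%, and 22 of 31 held both (71%), against 7.52%. The E2F-type letters TTCCCGC or TTTGGCG were in 3 of 31 (9.68%), against 5.99%. In Cdk1 the CHR nearest the start began 15 bases before it, in Cdc20 18 bases before it, in Top2a 23 and in Ube2c 29. Ncapd2 had its CHR farther out, 123 bases before the start. Plk1 had a CCAAT box 14 bases before the start and its CHR inside the transcribed part. Kif2c, the gene with the lowest ratio in the CD4 gate, had a CHR but no CCAAT in its window. The start site used for it lay inside the annotated gene (chr4:117159639-117182639, minus strand), as the 150 bases before it were 117178773-117178922. Bases before the outer start of Kif2c were thus not examined, and the windows of Kif14 and Kif4 likewise lay inside their genes. The start sites used for some other members, among them Cdk1, Ube2c and Ncapd2, also lay inside the annotated gene. The CHR nearest the start in Cdk1 and in Ube2c, and the E2F-type motif of Ncapd2, therefore fell within the annotated gene. A match is a description of the letters, not of a bound site.

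In the CD8 gate the mitotic genes were lower by much less. By the rule of size, 9 of the 37 were lower under anti-IL-2 and 0 were higher, while 13.3% of the 928 measured genes were lower and 8.3% higher. All 37 log2 ratios were below 0, with a median of -0.51 against -0.18 over all measured genes and a range from -0.80 to -0.25. The counting interval of the ratio lay below 1 for 37 of 37, as it did for 53.9% of all measured genes at any fold. The count of 9 rests on the fold chosen, since many ratios lie near its edge: Kif20b was just inside at 0.666 and Kif20a just outside at 0.667. It was 1 with the integration shift left in or relative to the all-gene median, and 3 with classes from clusters. It was 16 with no minimum of detected genes and 36 when only cells whose total could be read directly were used. Such totals were read for 188 of the 1551 anti-IL-2 cells, so the 36 rests on a small part of that library.

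The 9 genes were Depdc1b, Kif15, Aurkb, Kifc1, Spc25, Spc24, Plk1, Kif11 and Kif20b. Depdc1b had the lowest ratio, at 0.573 (0.45 to 0.728), with 12.4% and 21.6% of cells. Kif15, a motor that backs up Kif11 in keeping the spindle bipolar, was in 31.5% (27.9 to 35.2%) and 51.5% (48.1 to 54.9%). Aurkb was in 37.7% and 60.6% of cells. Spc24 was in 49.0% (45.1 to 52.9%) and 74.8% (71.7 to 77.6%), the widest gap of the CD8 gate. Plk1 was in 40.9% and 61.9%. Kifc1 was in 32.1% and 50.2%, and Kif11 in 36.7% and 55.3%.

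The ratios nearest to 1 were those of Cenpa (0.842), Top2a (0.825), Ube2c (0.806), Kif14 (0.774) and Mki67 (0.758), of which all but Kif14 were among the widely detected members. Birc5 was in 63.9% and 86.5% of CD8 cells, Ccnb2 in 59.7% and 83.7%, Cenpa in 70.8% and 84.1%, Ube2c in 66.8% and 82.9%, Mki67 in 59.8% and 78.9%, and Top2a in 59.2% and 71.8%. For 10 of the 37 genes the tacrolimus share was at least 66.7%, so a 1.5-fold higher share was not possible. Cdk1 (45.1% and 67.2%), Ccna2 (55.2% and 78.4%), Ccnb1 (44.0% and 61.6%), Cdc20 (45.6% and 63.8%), Bub1b (36% and 51.4%) and Ncapd2 (47.1% and 68.6%) had ratios between 0.671 and 0.715. Kif14 had the smallest gap, 17.2% against 22.2%.

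The gap between the libraries was wider in the CD4 gate than in the CD8 gate for every member. The CD4 log2 ratio minus the CD8 log2 ratio had a median of -1.21 over the 37 genes, and its 95% counting interval lay below 0 for 37 of 37. Over all 850 genes measured in both gates the median was -0.21, and the interval lay below 0 for 35.6%. Kif2c differed most between gates, by -1.86 (-2.63 to -1.08), followed by Plk1 at -1.52 (-2.07 to -0.98) and Ccnb1 at -1.48 (-2.01 to -0.95). Cenpa (-0.49, -0.73 to -0.24) and Top2a (-0.51, -0.80 to -0.22) differed least. The intervals cover counting error only, and the 2 gates share their libraries.

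**Figure D2:**
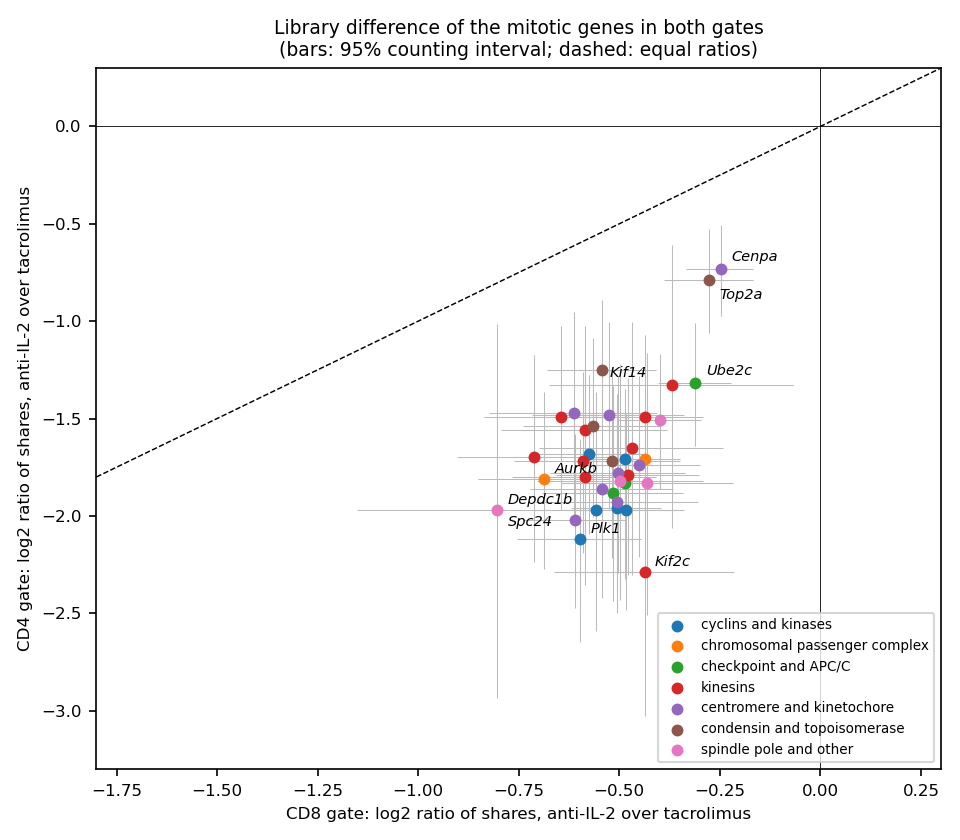
Log2 ratio of shares, anti-IL-2 over tacrolimus, in the CD8 gate (x axis) and the CD4 gate (y axis) for the 37 mitotic genes, coloured by role, with 95% counting intervals. All points lie below the dashed line of equal ratios, and Cenpa and Top2a lie nearest to it.

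The 4 groups of cells can also be read within a library, where the values of both gates come from 1 sample. Under tacrolimus the CD4 and CD8 gates were near each other. At matched depth 0 of 37 members were past the rule of size in either direction, against 9.8% of 918 measured genes lower and 9.69% higher in CD4 cells. All 37 log2 ratios of CD4 over CD8 cells were below 0, with a median of -0.23 (all measured genes, -0.04), and for 22 of 37 the counting interval lay below 1, as for 24.6% of all genes. Cdc20 had the lowest ratio, with 46.1% of CD4 and 61.6% of CD8 cells, followed by Aspm (27.3% and 35.8%), Ccnb1 (47.2% and 60.6%) and Ccnb2 (65.2% and 83.4%). For Nuf2 (38.6% and 38.7%), Ndc80 (41.6% and 43.9%) and Kif2c (31.1% and 33.0%) the counting interval of the ratio included 1.

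Under anti-IL-2 the gates stood apart. All 37 members were lower in CD4 than in CD8 cells by the rule, against 43% of 931 measured genes lower and 10.5% higher, and 63.1% with a counting interval below 1 at any fold. The 37 had a median log2 ratio of -1.62 (all measured genes, -0.46) and the range -2.24 for Kif2c to -0.75 for Top2a. Aspm was in 7.07% of CD4 and 28.5% of CD8 cells, Ccnb1 in 11.3% and 44.0%, and Plk1 in 10.6% and 40.9%. Here the CD8 cells were deeper (median 13288 against 9458 UMIs) and were not thinned; with thinning the median was -1.32 and 37 of 37 remained past the rule. When only cells whose total could be read directly were used, 29 of 36 measured members were lower.

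The order of the 37 genes by share was much the same in the 4 groups. Spearman's rho between any 2 groups was 0.87 to 0.98 over the 37 genes, as a description, since libraries and depth are shared. Birc5, Cenpa, Ccnb2 and Ube2c were the 4 most widely detected in both tacrolimus gates, and Kif14 and Depdc1b the least. In the exact UMIs of the tacrolimus library at full depth, Ube2c and Birc5 were also the most abundant, at 6.87 and 6.44 UMIs per 10000 in CD8 cells and 5.97 and 5.07 in CD4 cells. Top2a followed, with 4.2 and 4.24. Depdc1b and Kif14 had 0.21 and 0.19 in CD8 cells. UMIs are counted at 5′ ends and were not scaled by gene length.

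The members were found together in the same cells, as the number of the 37 detected per cell shows. In the CD4 gate the median cell held 1 member under anti-IL-2 and 16 under tacrolimus. For CD8 cells it was 13 and 24. Cells with 10 or more members made up 13.8% of anti-IL-2 CD4 cells (9.99 to 18.3%) and 59.2% of tacrolimus CD4 cells (53.0 to 65.1%). Among CD8 cells the shares were 54.6% (50.6 to 58.5%) and 77.4% (74.5 to 80.2%).

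The distribution had 2 ends in each group. Of the anti-IL-2 CD4 cells, 78.8% held 0 to 4 members, 1.41% held 10 to 14 and 6.71% held 30 or more. Of the tacrolimus CD4 cells, 33.0% held 0 to 4, 7.12% held 10 to 14 and 20.6% held 30 or more. Anti-IL-2 CD8 cells had 35.8% at 0 to 4 and 20.5% at 30 or more, and tacrolimus CD8 cells 12.8% and 31.9%. Cells with 20 or more members had more UMIs than cells with 4 or fewer (medians of 19446 against 9087 in anti-IL-2 CD4 cells and 12023 against 7590 in thinned tacrolimus CD4 cells), so depth moves with the number of members, and its part was not tested.

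**Figure D3:**
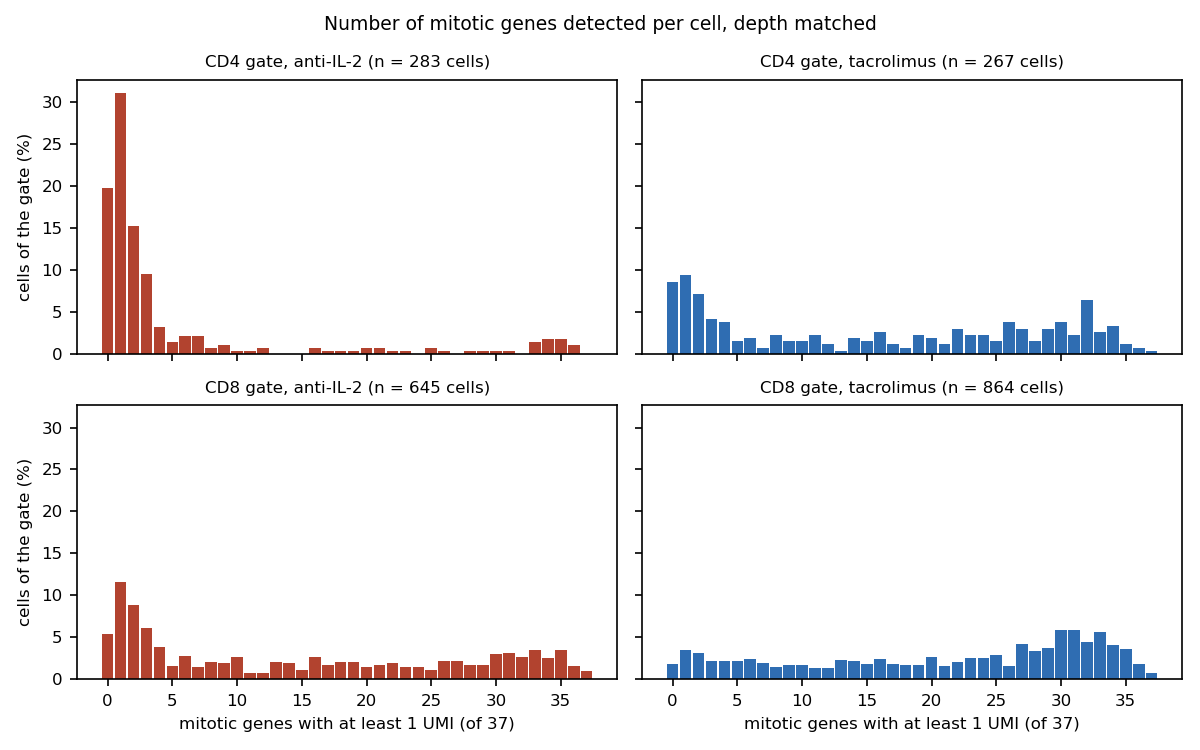
Number of the 37 mitotic genes with at least 1 UMI per cell (x axis) against the percent of cells of the gate (y axis), for each gate and library at matched depth. Anti-IL-2 CD4 cells pile up at 0 to 4 members (78.8%), and tacrolimus CD8 cells at 30 or more (31.9%).

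Pairs of members were described in the tacrolimus library, where UMIs are exact, with the phi coefficient of detection over cells. Its median over the 666 pairs was 0.40 in CD8 cells (0.14 to 0.66) and 0.51 in CD4 cells (0.24 to 0.77). In the CD8 gate the highest was Birc5 with Ccnb2 (0.66), then Aurkb with Kif11 (0.66) and Aurkb with Cdk1 (0.64). Cdc20 and Plk1 had 0.64: Plk1 was in 85.6% of Cdc20-positive and 21.2% of Cdc20-negative CD8 cells. In the CD4 gate Cdk1 with Top2a was highest (0.77). The lowest pairs held Depdc1b or Kif14, whose shares are low, so a phi near 1 cannot be reached. Cells share a library and differ in depth, so these are descriptions.

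Each member was also read in cells picked by how many of the other 36 they held. That choice by itself makes most members rare in cells with few and frequent in cells with many. The shares are therefore descriptions. Taking cells with 4 or fewer of the other 36 genes, the median member was in 2.24% of anti-IL-2 and 2.27% of tacrolimus CD4 cells, and in 2.56% and 2.68% of CD8 cells. With 20 or more of the others, the median member was in 82.8% and 78.9% of CD4 cells and in 80% and 77.4% of CD8 cells. Cells with 4 or fewer others served as the low reference, because no cell type known to lack the genes was examined. Free RNA was not measured.

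A few members were still detected in cells with 4 or fewer others. Cenpa was in 30% (24.1 to 36.4%) of these cells in the anti-IL-2 CD4 gate and 27.2% (18.4 to 37.4%) in the tacrolimus CD4 gate. Top2a was in 25.4% (19.9 to 31.7%) and 10.1% (4.73 to 18.3%), and in the CD8 gate in 20.5% (15.5 to 26.3%) and 10.4% (5.51 to 17.5%). Ube2c was in 12.4% and 23.9% of such CD4 cells and in 33.1% and 49.6% of such CD8 cells. Birc5 was in 2.21% and 16.5%, and in 11.8% and 27.4%. Plk1, by contrast, was in 0 of 223 anti-IL-2 CD4 cells of this kind; 3 counts of that total would be a share of 1.35%, and the exact 95% interval reaches 1.64%. In the anti-IL-2 CD4 gate Cenpa and Top2a, the members with library ratios nearest to 1, were those most often found in cells poor in other members. The 2 traits are not separate, since such cells were 68 of the 116 Cenpa-positive and 57 of the 100 Top2a-positive cells. Under tacrolimus the members most often found in such cells were Cenpa and Ube2c.

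**Figure D4:**
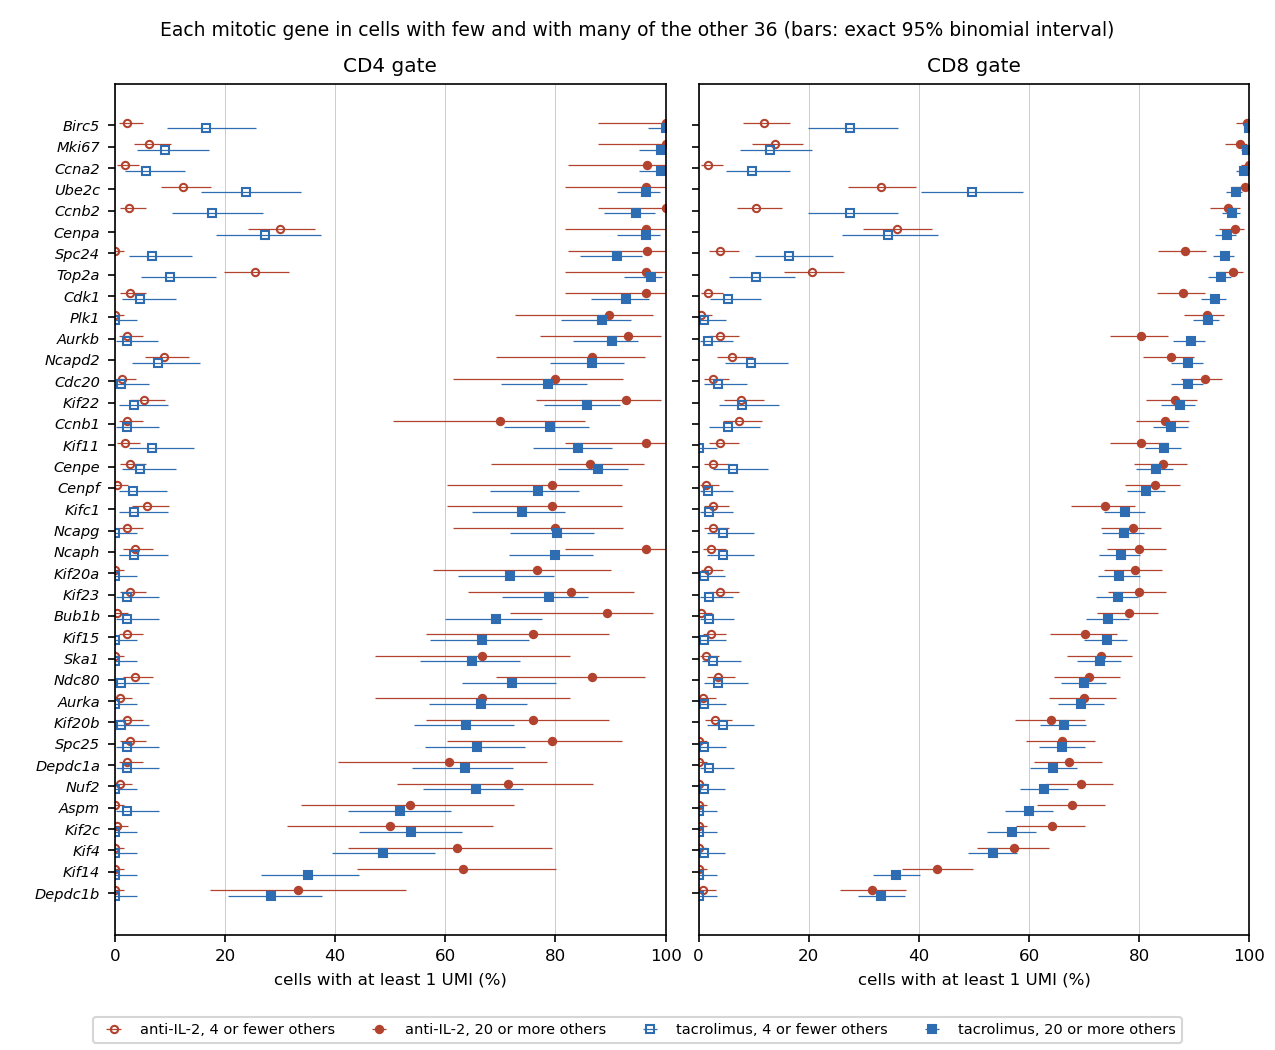
Share of cells with each mitotic gene (x axis, percent, exact 95% binomial intervals) among cells with 4 or fewer (open) and with 20 or more (filled) of the other 36 members, by gate and library at matched depth. Most open points lie near 0 (medians 2.24% to 2.68%), while those of Cenpa lie between 27.2% and 36%.

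A list of 35 DNA replication genes that shares no gene with the 37 was used to class cells by how many replication genes they held. The classes have open limits, so cells of the libraries were not matched on that number. At matched depth the median CD4 cell held 4 replication genes under anti-IL-2 and 18 under tacrolimus. For CD8 cells the medians were 15 and 24. With at least 3 replication genes as the limit, 76.0% and 93.6% of CD4 cells and 94.9% and 97.2% of CD8 cells (anti-IL-2 and tacrolimus) counted as replicating. Within them 37 of 37 members were still lower under anti-IL-2 in the CD4 gate (median log2 ratio -1.50, against 34.9% of measured genes lower and 11.9% higher), and 4 of 37 in the CD8 gate (median -0.48, against 11.7% and 8.13%). Among the few other cells (68 and 17 in CD4, 33 and 24 in CD8), 4 of 26 measured members were lower in CD4 (8.48% of genes lower, 3.18% higher) and 2 of 19 in CD8 (5.66% and 6.32%). A member that reached the minimum share only under tacrolimus could be counted only as lower, and the reverse. Because the class of at least 3 replication genes held most cells, a stricter one of 15 or more was added after the values were seen.

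The stricter class held 43 of 283 anti-IL-2 CD4 cells (15.2%, 11.2 to 19.9%) and, at matched depth, 159 of 267 tacrolimus CD4 cells (59.6%, 53.4 to 65.5%). For CD8 cells these were 332 of 645 (51.5%) and 637 of 864 (73.7%). Inside it, 0 of 37 members were lower under anti-IL-2 in the CD4 gate and 1 was higher, with 3.41% of measured genes lower and 5.29% higher. Among CD8 cells 0 were lower and 0 higher, with 7.43% and 8.17% of measured genes. Log2 ratios had a median of -0.03 in both gates, and the median cell held 26 and 26 members in CD4 and 26 and 27 in CD8. Replication and mitotic genes marked largely the same cells, so this choice of cells by itself makes members frequent in both libraries. The likeness inside the class is therefore a description. For these comparisons tacrolimus cells were classed at full depth and then thinned (165 and 642 cells), and the anti-IL-2 cells remained deeper (median 18670 against 14030 UMIs in CD4 and 18670 against 15770 in CD8).

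Named genes show the same. In this class Mki67 was in 86.0% of anti-IL-2 and 86.1% of tacrolimus CD4 cells, Cdk1 in 81.4% and 81.2%, Plk1 in 62.8% and 67.9%, Cenpf in 55.8% and 55.8%, and Kif2c in 34.9% and 44.2%. In CD8 cells Mki67 was in 88.6% and 90.7%, Cdk1 in 77.1% and 81.0%, Plk1 in 68.4% and 73.5%, Kif2c in 45.5% and 43.3% and Aurkb in 63.0% and 74.8%. Kif14 was the 1 member past the rule, higher under anti-IL-2 in CD4 cells at 41.9% against 24.8% (18 of 43 and 41 of 165 cells). With limits of 10 or 20 replication genes, or with the integration shift left in, Kif14 was not past the rule. With 43 anti-IL-2 cells, smaller differences were not detectable in the CD4 gate.

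**Figure D5:**
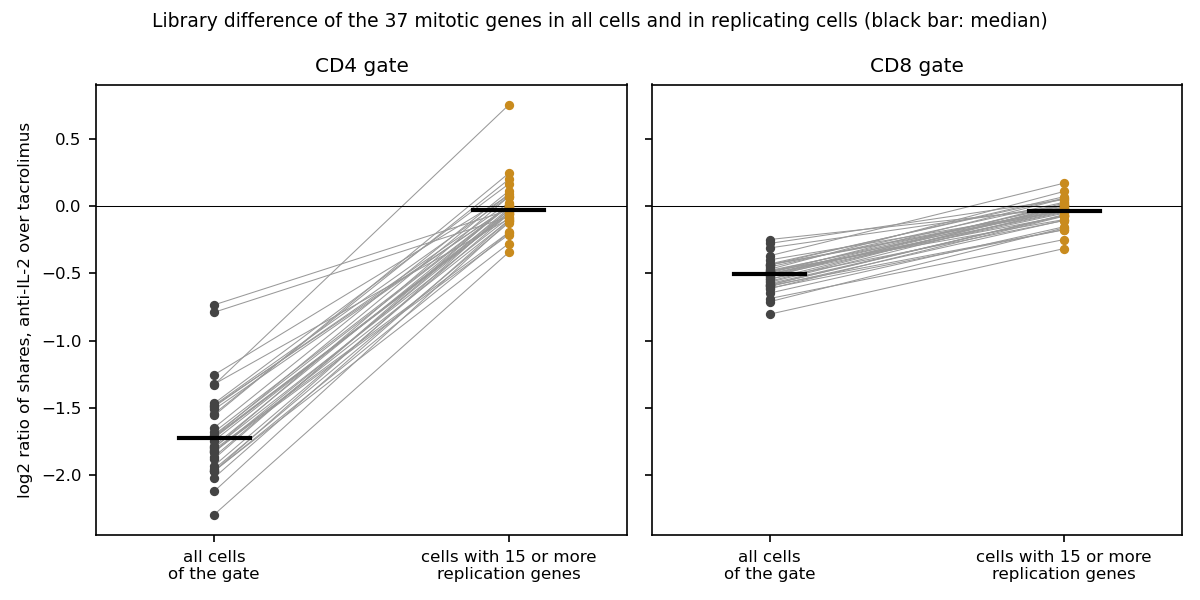
Log2 ratio of shares, anti-IL-2 over tacrolimus (y axis), of each of the 37 mitotic genes in all cells of the gate and in cells with 15 or more of 35 replication genes, joined by lines, with the median as a black bar. The medians move from -1.72 (CD4) and -0.51 (CD8) to -0.03 in both gates. Cells picked by replication genes are largely those that hold mitotic genes, so the move is a description.

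Cells with fewer than 15 replication genes were the rest of each gate: 240 anti-IL-2 and 102 tacrolimus CD4 cells, and 313 and 222 CD8 cells. Among them 22 of the 37 members were lower in the CD4 gate, and Top2a alone was higher, at 26.2% against 15.7%, with 21.9% and 12.6% of measured genes lower and higher and 5 of the 37 under the minimum share. For CD8 cells 33 of 37 were lower and 0 higher, against 18.3% and 14.5%. Kif2c was in 1 of 240 and 9 of 102 such CD4 cells, and Plk1 in 3 and 15. The median member was in 3.75% of anti-IL-2 and 10.8% of tacrolimus CD4 cells of this class, and in 10.9% and 23.0% of CD8 cells. The median anti-IL-2 share in CD4 cells was thus under the 5% minimum. A member measured only through its tacrolimus share could be counted only as lower, which limits the CD4 count. A class made from a count per cell is a range, not a cell type.

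Replication genes and mitotic genes marked largely the same cells. Cells with 10 or more of both made up 13.4% of anti-IL-2 CD4, 55.8% of tacrolimus CD4, 49.9% of anti-IL-2 CD8 and 72.5% of tacrolimus CD8 cells. Those with 10 or more mitotic and fewer replication genes were 0.353%, 3.37%, 4.65% and 4.98%. Those with 10 or more replication and fewer mitotic genes were 6.71%, 12%, 10.1% and 8.8%.

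Other genes of the cell cycle, from lists chosen with earlier results of these data known, stood beside the 37 as follows; over all measured genes 38.1% were lower and 12.4% higher in the CD4 gate (median log2 ratio -0.31), and 13.3% and 8.3% in the CD8 gate (median -0.18). Of 38 mitotic genes outside the symbol rule, 33 were lower in the CD4 gate under anti-IL-2 and 0 higher (median log2 ratio -1.60), among them Hmmr, a spindle assembly factor (9.54% and 40.4%), and Nek2, a centrosome kinase (6.36% and 25.1%). Among CD8 cells 4 of 38 were lower (median -0.43), a share no higher than that of all genes. Of the 35 replication genes, 32 were lower in the CD4 gate (median -1.46), among them Cdc6, which licenses origins (4.59% and 18%), and Rrm2, a subunit of ribonucleotide reductase (16.2% and 58.4%). Among CD8 cells 5 of 35 were lower (median -0.43), near the share of all genes.

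In a list of 14 G1 cyclins, inhibitors and quiescence genes, 13 reached the minimum share. In the CD4 gate 3 were lower and 1 higher under anti-IL-2 (median -0.18), and in the CD8 gate 2 were lower and 0 higher (median -0.13), which for lower genes is near or below the share of all genes in each gate. Cdkn1a, which encodes the inhibitor p21, was in 5.30% of anti-IL-2 and 21.0% of tacrolimus CD4 cells, and Cdkn2c, which encodes p18, in 15.5% and 41.9%. Trp53inp1, a p53 target, was in 30% and 15%, the opposite direction. Among CD8 cells Ccnd2 (cyclin D2) was in 23.7% and 40.6%.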

How the data were processed

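Libraries were prepared with a 10x 5′ kit and read on a NextSeq500 (per the labels' protocols). Cell Ranger 3.1.0, Seurat without a version, and mm10 are named in the submitters' processing notes, and read and cell filters are not given in the sources used here. Values deposited by the authors are natural log values of 2000 genes per cell. Those of tacrolimus were whole UMIs in 100% of cases (within 0.001 of a UMI), scaled to 50000 per cell. Those of anti-IL-2 were 13.9% below 0 and 42% exactly 0, as in batch-integrated data, whereas the planned design had assumed UMIs. The 308 anti-IL-2 columns repeated in the tacrolimus table were used once.

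UMI totals of anti-IL-2 cells were estimated, and a shift per gene shared by the 20 nearest cells was removed; a value over 0.5 of the level of 1 UMI was a detection. For 188 cells the total could be read directly, and the estimate was within 1.25-fold in 96.8%. The procedure was tried on simulated libraries made from tacrolimus cells (Seurat 5.3.0, R 4.3.3), some of which had served to choose its settings. Its accuracy there is not reported here, so the error of the anti-IL-2 detections is not given. Only shares are compared between libraries.

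Intervals came from statsmodels 0.14.6 (ratios) and scipy 1.17.1 (exact binomial). Scrublet in scanpy 1.11.5 called 1 and 0 doublets, so it did not work here, and no cell was removed. Named genes are the 5 largest and 5 smallest ratios, the 4 members per role most detected in tacrolimus CD8 cells, members against the majority and up to 4 genes per other list; further members were named after their values were seen. The members, lists and rules were chosen with earlier results of these data known. Alternatives varied depth, gates, filters, fold, minimum share and the recovery.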

Additional observations from a re-analysis of the deposited data

How the results depend on the processing

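No paired analysis was possible because there was 1 library per treatment. For the CD4 gate between libraries, 36 or 37 of the 37 members remained lower with the shift left in, with directly read totals, at full depth, with another seed, with gates at 2 UMIs and with classes from clusters, and 35 at 2-fold or relative to the median of all genes. The median log2 ratio was -2.54 with directly read totals. UMIs per 10000 could be used for only 2 members in fewer than 20% of cells, of which 1 was lower (median -1.28), and for none in the CD8 gate. For the CD8 gate between libraries, the count of 9 lower members became 1 with the shift left in, 36 with directly read totals (median -1.11), 16 with no minimum of detected genes, 3 with classes from clusters, 0 at 2-fold, and 1 relative to the median of all genes (median -0.32). Between gates under tacrolimus the median was -0.33 at full depth and -0.33 with no minimum. Between gates under anti-IL-2 it was -1.96 with no minimum, and with directly read totals 29 of 36 measured members were lower (of all 37, 7 lost the call and Kif14 alone reversed, to 0.064); at 2-fold 35 of 37 were lower. The share of cells with 10 or more members with no minimum was 50.5% in tacrolimus CD4, 50.1% in anti-IL-2 CD8 and 72.7% in tacrolimus CD8 cells; with the shift left in it was 58.6% in anti-IL-2 CD8 cells. In cells with replication genes, a limit of 5 gave a median of -1.09 in the CD4 gate and 1 lower member (median -0.35) in the CD8 gate, where a limit of 2 gave 7 and the shift left in 1. In the class of 15 or more, a limit of 10 gave 1 lower and 0 higher members in the CD4 gate, a limit of 20 gave 0 higher, and the shift left in gave 1 lower, 0 higher and a median of -0.27. In the CD8 gate a limit of 20 turned the median to 0.00087. The causes of these changes were not tested. Alternatives on Cst3, on thinning both libraries, on symmetric totals and on the class of 15 or more were chosen after seeing the data. With few anti-IL-2 CD4 cells and 1 library per treatment, differences in rare genes such as Depdc1b rest on 10 positive cells, and intervals do not cover errors of the recovered UMIs.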
